A study of Mus musculus with 13 samples.

Results

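Mouse 2-cell embryos fathered by sperm exposed to acrylamide in the epididymis (AAE) were compared with 2-cell embryos fathered by sperm exposed as spermatocytes (AAS). The comparison rested on 6 RNA-seq libraries, 3 AAE and 3 AAS, out of 13 samples in the series, and on 9696 genes out of 15748 listed in any of these 6 libraries. A gene entered when its mean over the 6 libraries was 1 FPKM or more, FPKM being fragments per kilobase of transcript scaled to the library's mapped fragments. At that limit, Ccdc71 with a mean of 1.0 FPKM, Myc with 1.003 and 9830147E19Rik with 1.003 were just inside, and Otop1, Ctsm and Lime1 with 0.998 FPKM each were just outside. Male Swiss mice of all exposed groups had received acrylamide by intraperitoneal injection at 25 mg/kg per day for 5 days. Sperm were collected 3 days after the last injection for AAE and 24 days after it for AAS, and embryos came from in vitro fertilisation. Exposure stage and time since the last injection therefore cannot be told apart. A further 3 libraries came from embryos of males injected with the PBS vehicle alone (Control), and their values are given as a level only. Each library was made from a group of embryos. The labels name neither the number of embryos or fathers nor separate cultures, so p-values measure the spread between these libraries, which may be technical.

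Acrylamide is oxidised in the body to glycidamide, which binds DNA, and both compounds are removed partly by conjugation to glutathione. Sperm that pass through the epididymis are already compacted and transcriptionally silent, whereas spermatocytes still have meiosis and spermiogenesis ahead of them. The mouse 2-cell embryo is the stage at which the main wave of zygotic transcription begins, while much of the RNA laid down in the oocyte is being degraded. Its transcriptome therefore mixes maternal messages with the first embryonic ones.

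The libraries carried the markers of their stage. All 17 markers of the 2-cell embryo passed the filter, with a summed level of 3309 to 3873 FPKM in AAE and 3121 to 3614 FPKM in AAS, and 15 of 17 oocyte markers passed. Of 22 cumulus and granulosa cell markers, 4 passed and 9 had no entry in any of the 6 files, among them Amh, Foxl2 and Cyp11a1. Of 17 blood markers, 2 passed and 12 had no entry, including Ptprc and Csf1r. Of 28 spermatid and sperm markers, 4 passed and 13 had no entry, including Prm1, Tnp1 and Acr. The files held no value of 0, and a gene without an entry in a library was taken as 0 there. In bulk libraries, fewer cells of a kind and less RNA per cell cannot be told apart. Libraries of the 2 groups were about as alike between groups as within them: Pearson's r across genes on log2(FPKM + 1) was 0.869 to 0.926 within AAE, 0.844 to 0.884 within AAS and 0.848 to 0.913 between them, genes not being independent replicates. The first principal component, 31.5% of the variance, set AAE replicate 3 and AAS replicate 2 apart from the other 4 libraries and did not separate the groups. The second, 22.6% of the variance, had scores of 3.04, 8.59 and 54.46 in AAE and −10.91, −46.47 and −8.71 in AAS. It thus had the groups on either side of 0, with AAE replicate 3 and AAS replicate 2 at its ends, and carries no test. AAE replicate 3 and AAS replicate 2 were also the libraries with the lowest median r to the rest, 0.869 and 0.867. The AAE files listed 12563, 13914 and 11625 genes and the AAS files 12225, 12173 and 12673, a mean difference of 343.7 genes that the two-sided exact permutation test placed at p = 0.8, the smallest p possible being 0.1. Without AAE replicate 2 that difference was −263.0 genes.

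No gene passed the threshold between AAE and AAS embryos. Of 9696 genes, limma with Benjamini-Hochberg adjustment called 0 (0.00%) at an adjusted p of 0.05. An unadjusted p under 0.05 was reached by 520 genes (5.36%), against the 484.8 that this limit admits when no gene differs. Of these, 380 (3.92%) were higher and 140 (1.44%) lower in AAE. All 3 AAE libraries lay outside the range of the 3 AAS libraries for 1100 genes (11.3%), 679 above it (7.00%) and 421 below it (4.34%). With 3 libraries against 3, a gene that does not differ is separated in this way with a probability of 0.1. A share near that level therefore needs no difference between the groups. The balance of directions depended on scaling. The FPKM of a library summed to 359500, 407000 and 373600 in AAE and to 342500, 347000 and 351600 in AAS, so every AAE total exceeded every AAS total. The median difference over all genes was 0.05 on the log2 scale as deposited (54.3% of genes positive), −0.065 after each library was rescaled to the same total and −0.025 after quantile normalization. Of the genes whose groups did not overlap, 435 were then higher and 683 lower after rescaling, and 496 were higher and 598 lower after quantile normalization. Below, differences are AAE minus AAS in log2(FPKM + 1), which understates changes of genes with low values, and are to be read against the median of 0.05. List medians after rescaling are to be read against −0.065. Without 1 library the median of all genes ran from −0.008, without AAS replicate 2, to 0.095, without AAE replicate 3.

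**Figure D1:**
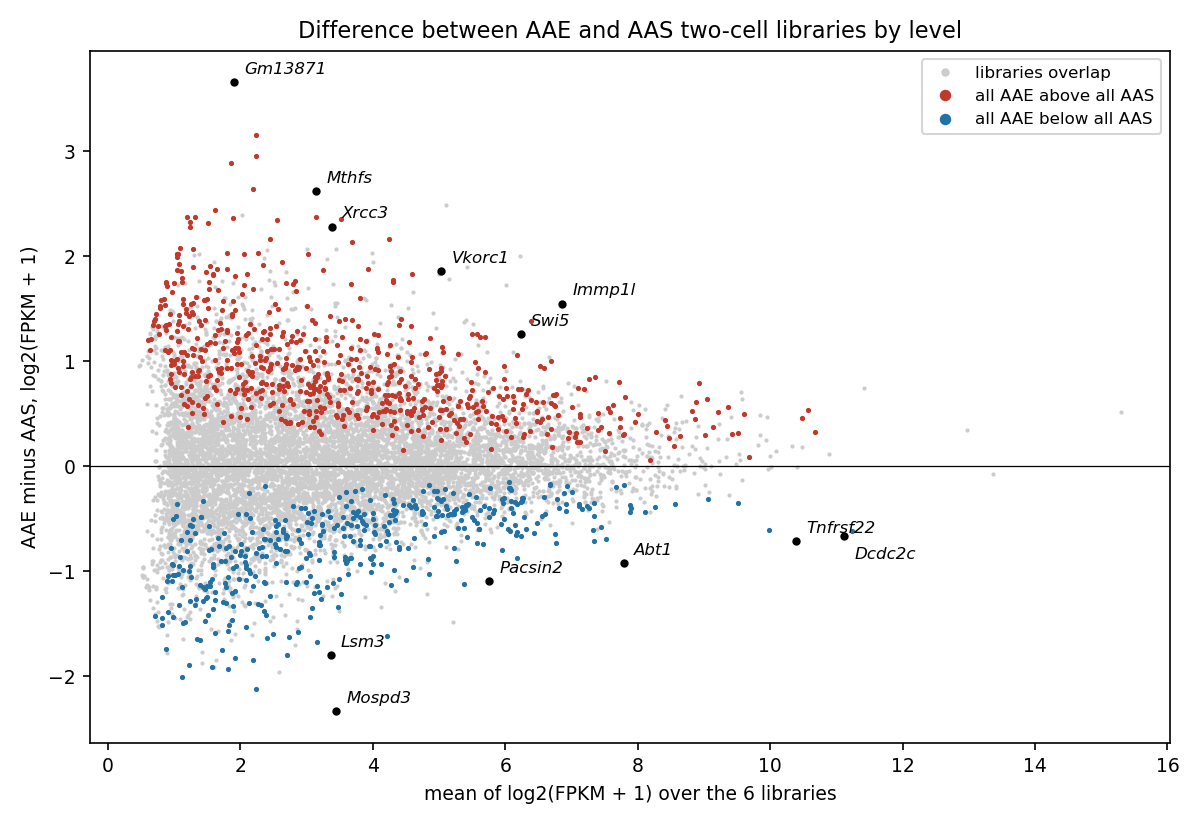
Each point is 1 of 9696 genes, with its mean log2(FPKM + 1) over the 6 libraries on the x axis and the AAE minus AAS difference in log2(FPKM + 1) on the y axis; red and blue points are the 679 and 421 genes whose libraries did not overlap. Immp1l stands out at a high level with a difference of 1.55, while differences beyond 2 were mostly found at low levels.

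The gene nearest to the threshold was Immp1l, on chromosome 2 (GRCm38.p6, 105904638 to 105965558). It encodes a subunit of the inner mitochondrial membrane peptidase, which removes sorting signals from proteins delivered to the intermembrane space. Immp1l had 180.98, 190.51 and 224.13 FPKM in AAE embryos, against 68.72, 64.93 and 67.58 FPKM in AAS embryos. The Control libraries had 146.33, 175.19 and 111.58 FPKM, between the 2 exposed groups and overlapping neither. AAE averaged 198.5 ± 22.7 FPKM and AAS 67.1 ± 1.94 FPKM (SD, n = 3 each), a ratio of 2.96. The log2 difference was 1.55 (SE 0.188), with an adjusted p of 0.108 (limma, Benjamini-Hochberg). With libraries weighted by their quality the adjusted p of Immp1l was 0.0459, the only call in any setting tried, and over all settings it ranged from there to 0.993.

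Of the 10 higher genes with the smallest p, the other 9 did not pass either, with an adjusted p of 0.843 each (limma, Benjamini-Hochberg). They were picked by p and not from a list, although Xrcc3 is also in the double-strand break repair list below. Xrcc3, needed for homologous recombination, had 14.92, 21.62 and 32.36 FPKM in AAE and 5.49, 2.75 and 3.3 FPKM in AAS. Its Control libraries had 13.63, 12.48 and 9.81 FPKM, above every AAS library and below every AAE library, and the difference was 2.28 (SE 0.424). Swi5, whose product assists strand exchange in recombination, had 96.51, 136.71 and 116.56 FPKM in AAE and 68.34, 43.54 and 36.45 FPKM in AAS, a difference of 1.26 (SE 0.274). Control levels of Swi5, 107.43, 82.62 and 91.75 FPKM, overlapped those of AAE only. Sfr1, the partner of Swi5, chosen after these values had been seen, had 103.72, 117.41 and 90.24 FPKM in AAE and 78.12, 65.38 and 57.76 FPKM in AAS, a difference of 0.62.

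Mthfs, which returns 5-formyltetrahydrofolate to the active folate pool, had 20.52, 19.58 and 22.52 FPKM in AAE, against 4.1, 3.59 and 0.91 FPKM in AAS. The AAE libraries were close together and the 2 groups far apart, with a difference of 2.62 (SE 0.464) and with Control between them at 13.28, 8.81 and 5.99 FPKM. Vkorc1, the vitamin K epoxide reductase of the endoplasmic reticulum, had 41.38, 63.21 and 88.16 FPKM in AAE and 25.06, 15.23 and 11.1 FPKM in AAS, a difference of 1.86 (SE 0.374). Control levels of Vkorc1, 58.93, 53.08 and 61.11 FPKM, lay within the AAE range. Gtf2e2, the beta subunit of the general transcription factor TFIIE, had 44.5, 37.25 and 50.14 FPKM in AAE and 17.32, 22.34 and 15.34 FPKM in AAS, a difference of 1.22. For its alpha subunit Gtf2e1, also chosen afterwards, the AAE levels of 3.36, 3.13 and 4.49 FPKM were likewise above the AAS levels of 3.04, 1.55 and 1.12 FPKM, by 0.73 (SE 0.494).

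Among the remaining genes of these 10, Myl6, a myosin light chain, had 29.42, 17.09 and 13.56 FPKM in AAE and 2.47, 4.05 and 2.29 FPKM in AAS, a difference of 2.37. Cd63, a tetraspanin of late endosomes and exosomes, had 48.19, 51.76 and 35.81 FPKM in AAE and 20.48, 5.64 and 13.83 FPKM in AAS. Ifitm3, an interferon-induced membrane protein, had 69.46, 78.21 and 70.89 FPKM in AAE and 39.35, 22.37 and 30.32 FPKM in AAS, but its Control libraries spanned 20.6 to 85.19 FPKM and overlapped both. Xlr4b, an X-linked imprinted gene, had 33.23, 35.59 and 29.24 FPKM in AAE and 17.42, 9.12 and 11.31 FPKM in AAS. It has close copies that may share reads with it, and Xlr4a (−0.10) and Xlr4c (−0.35) did not differ in the same direction, so the value of Xlr4b alone is uncertain.

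Among genes that were lower in AAE, those with the smallest p included some of the most abundant messages of the 2-cell embryo. Dcdc2c, a doublecortin-domain gene, had 1665.17, 1957.37 and 1660.68 FPKM in AAE and 2885.87, 2475.56 and 3054.29 FPKM in AAS, with Control between them at 2059.34, 2085.82 and 2243.58 FPKM. The difference was −0.67 (SE 0.145). Gm7102, on chromosome 19 and not 12, followed Dcdc2c closely, with 1683.42, 2107.16 and 2077.64 FPKM in AAE and 3126.6, 2561.64 and 3328.72 FPKM in AAS. Whether the 2 genes share reads was not tested, so they should not be counted as separate observations. Tnfrsf22, a decoy receptor for the death ligand TRAIL in the mouse, had 1083.44, 980.13 and 1071.53 FPKM in AAE and 1342.1, 2017.41 and 1854.87 FPKM in AAS, a difference of −0.71 (SE 0.175). Its Control libraries, 1166.79, 1083.82 and 1069.94 FPKM, lay below every AAS library. Ccdc186, a coiled-coil protein of dense-core vesicle trafficking, had 870.29, 754.61 and 822.57 FPKM in AAE and 1346.51, 1280.39 and 1121.54 FPKM in AAS, and its Control libraries overlapped both.

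Abt1, an activator of basal transcription, had 171.46, 161.71 and 145.86 FPKM in AAE and 252.38, 362.38 and 305.87 FPKM in AAS. The difference was −0.93 (SE 0.190), and the Control libraries at 210.04, 123.1 and 166.62 FPKM overlapped those of AAE only. Pacsin2, an adaptor that bends membranes during endocytosis, had 32.12, 45.41 and 32.03 FPKM in AAE and 83.74, 61.84 and 91.47 FPKM in AAS, a difference of −1.09. Control levels of Pacsin2 were nearly constant at 45.49, 47.32 and 45.49 FPKM, just above AAE and below every AAS library. Lsm3, a component of the U6 snRNA and mRNA decay rings, had 4.47, 7.6 and 2.54 FPKM in AAE and 24.86, 18.53 and 12.96 FPKM in AAS. Mospd3, an endoplasmic reticulum contact-site protein, had 0.89, 6.07 and 7.42 FPKM in AAE and 32.3, 30.33 and 12.88 FPKM in AAS, a difference of −2.34 (SE 0.611). Hmgn3, a nucleosome-binding protein, and 1700066M21Rik were lower by −2.13 and −1.62. All of these 10 had an adjusted p of 0.843 (limma, Benjamini-Hochberg). Read across both directions, the Control libraries of 8 of the 20 genes overlapped AAE but not AAS, 5 overlapped both and 7 overlapped neither. Dcdc2c and Gm7102 are both among the 7. The 20 genes were picked by their p between AAE and AAS, and these shares were not taken over all genes. Whether Control was nearer to either group was therefore not tested.

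The promoters of 4 of these leading genes, 3 higher and 1 lower in AAE, are shown with the letters that were searched in all promoters: Immp1l (chr2:105904388-105904687, + strand), Xrcc3 (chr12:111813830-111814129, − strand), Vkorc1 (chr7:127895568-127895867, − strand) and Abt1 (chr13:23423817-23424116, − strand). The windows, from RefSeq on GRCm38.p6, run from 250 bases before to 50 bases after the annotated start, 5′ to 3′ on the gene's strand, and capitals mark CCAAT or GGGCGG read on either strand.
Immp1l: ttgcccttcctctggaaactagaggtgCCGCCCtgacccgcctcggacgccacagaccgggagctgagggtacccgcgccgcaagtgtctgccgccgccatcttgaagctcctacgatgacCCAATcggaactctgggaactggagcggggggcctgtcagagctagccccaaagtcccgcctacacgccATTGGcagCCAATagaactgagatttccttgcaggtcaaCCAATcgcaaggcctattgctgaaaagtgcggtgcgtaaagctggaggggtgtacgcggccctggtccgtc
Xrcc3: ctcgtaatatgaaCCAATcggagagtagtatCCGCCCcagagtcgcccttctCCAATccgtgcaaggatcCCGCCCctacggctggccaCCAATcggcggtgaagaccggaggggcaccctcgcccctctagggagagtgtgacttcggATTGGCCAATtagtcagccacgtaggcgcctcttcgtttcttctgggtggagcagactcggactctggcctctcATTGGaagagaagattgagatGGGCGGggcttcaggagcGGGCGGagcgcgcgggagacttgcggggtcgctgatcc
Vkorc1: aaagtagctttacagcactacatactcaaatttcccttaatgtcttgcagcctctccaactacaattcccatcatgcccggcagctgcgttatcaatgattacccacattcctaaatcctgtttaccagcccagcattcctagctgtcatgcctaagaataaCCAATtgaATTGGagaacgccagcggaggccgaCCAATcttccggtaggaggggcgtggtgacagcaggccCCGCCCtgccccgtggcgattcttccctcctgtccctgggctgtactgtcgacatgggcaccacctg
Abt1: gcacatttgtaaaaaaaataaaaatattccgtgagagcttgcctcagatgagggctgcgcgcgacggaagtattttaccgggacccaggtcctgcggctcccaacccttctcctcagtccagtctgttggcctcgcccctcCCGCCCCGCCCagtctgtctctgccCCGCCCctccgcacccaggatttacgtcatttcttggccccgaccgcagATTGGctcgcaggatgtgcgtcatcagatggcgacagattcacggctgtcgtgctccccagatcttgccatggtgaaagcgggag
Immp1l held 4 copies of CCAAT, Xrcc3 6, Vkorc1 3 and Abt1 1, counting both strands. CCAAT occurred on either strand in 37.4% of all 32851 RefSeq windows of 300 bases and in 39.5% of the 10063 windows of genes tested here. It was in 43% of the windows of genes whose AAE libraries were all higher and in 36% of those whose AAE libraries were all lower. Among the 11 windows found for the 10 named higher genes and the 11 found for the 10 named lower genes, 6 (54.5%) held CCAAT in each set, so the 4 windows printed do not stand for a difference between the sets. GGGCGG was in 35.7% of all windows, 60.5% of those of genes tested, 61.8% of the windows of higher and 64.5% of those of lower genes. These matches describe letters in the windows and carry no test.

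A few genes were listed in AAE libraries and barely or not at all in AAS ones, or the reverse. Of the 9696 genes, 8961 were listed in all 6 libraries, 9 in every AAE and no AAS library, and 2 in every AAS and no AAE library. Ccl3, a chemokine, had 5.01, 5.42 and 3.66 FPKM in AAE and 0.3, 0 and 0 FPKM in AAS, with 4.08, 7.58 and 1.62 FPKM in Control. Trappc2l, a subunit of a vesicle tethering complex, had 4.56, 2.94 and 5.36 FPKM in AAE and had no entry in any AAS library. Gm13871, a predicted gene, had 1.31, 55.53 and 16.65 FPKM in AAE and 0.15, 0 and 0 FPKM in AAS, so that AAE replicate 2 held most of its signal. Chchd4, which oxidises proteins on import into the mitochondrial intermembrane space, had 3.03, 5.78 and 1.58 FPKM in AAE and 0, 0 and 0.05 FPKM in AAS. Control levels were low as well, at 1.53, 0 and 0.32 FPKM for Trappc2l and 0.44, 0 and 0.51 FPKM for Chchd4. In the other direction, Klf2, a Krüppel-like factor of the pluripotency network, had 0, 0.21 and 0 FPKM in AAE and 0.88, 1.71 and 3.82 FPKM in AAS. Tec, a tyrosine kinase, had 0, 0.12 and 0 FPKM in AAE and 1.12, 6.4 and 0.65 FPKM in AAS. The other lower genes taken by the same rule overlapped between groups. 3110040N11Rik had 0, 1.74 and 0 FPKM in AAE and 1.18, 4.33 and 10.72 FPKM in AAS. Rgs20, a regulator of G protein signalling, had no entry in any AAE library and 0, 5.33 and 2.79 FPKM in AAS. Each 0 here stands for a gene without an entry in that library, which can also be a failed estimate, and fold changes are not given for these genes.

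Most cytosolic ribosomal protein genes had a positive difference, but the groups overlapped and a few libraries stood apart. The median difference was 0.56 over 47 large-subunit ribosomal proteins, 41 of them positive, and 0.68 over 32 small-subunit ones, 29 of them positive, against 0.05 over all genes. Every AAE library was above every AAS library for 2 large-subunit genes (4.26%), Rpl18 among them, and for 2 small-subunit genes (6.25%), Rps19 and Rps15a, shares that were below the 7.00% of all genes. Rps19, of the small subunit's head, had 24.3, 35.92 and 25.38 FPKM in AAE and 12.04, 1.81 and 12.58 FPKM in AAS. The mean log2 level of the large-subunit list was 5.35, 5.89 and 4.19 in AAE and 5.1, 3.34 and 5.17 in AAS, with 6.19, 5.62 and 4.59 in Control. AAE replicate 3 lay below AAS replicates 1 and 3, so the groups overlapped, and AAS replicate 2 was lowest of all. Without AAS replicate 2 the median difference was −0.05 for the large and −0.07 for the small subunit, without AAE replicate 3 it was 1.05 and 1.15, and without both it was 0.42 for each. Rpl4, the most abundant large-subunit member, overlapped between groups, with 206.26, 176.08 and 111.37 FPKM in AAE and 155.89, 96.91 and 122.5 FPKM in AAS.

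Mitochondrial ribosomal proteins had a median difference above 0 whichever library was left out. Of 77 mitochondrial ribosomal protein genes, 64 passed the filter, with a median difference of 0.40, and 46 of them were positive. In 11 of the 64 (17.2%, against 7.00% of all genes) every AAE library was above every AAS library, and in 0 was every AAE library below. Mrps21 had 21.43, 25.32 and 32.45 FPKM in AAE and 9.01, 10.75 and 1.0 FPKM in AAS, a difference of 2.13 (SE 0.623). Mrpl21 had 1.53, 6.39 and 2.65 FPKM in AAE and 0, 0.24 and 0 FPKM in AAS. The other 9, which are given after their values were seen, were Mrpl16, Mrpl44, Mrps28, Mrpl17, Mrpl35, Mrpl57, Mrps25, Mrpl12 and Mrps7, with differences of 0.47 to 1.59. Leaving out single libraries moved the list's median between 0.23, without AAE replicate 2, and 0.64, without AAS replicate 3. Its mean log2 level was nonetheless 2.56, 3.15 and 2.39 in AAE and 2.48, 1.82 and 2.46 in AAS, so the lists as a whole overlapped between groups.

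Respiratory chain genes had positive median differences as well. The median was 0.46 over 29 subunits of complex I, 18 of them positive, and 0.34 over 41 genes of complexes II to V, 28 of them positive. Groups did not overlap, with AAE above, for 3 genes of complex I (10.3%) and 5 of complexes II to V (12.2%), against 7.00% of all genes, and 0 genes of either list were below. Among the 16 complex I genes listed in all 6 libraries the median was 0.09, with 8 positive and 8 negative. Without AAS replicate 2 the complex I median over all 29 was 0.19, and without AAE replicate 2 that of complexes II to V was 0.08. Cox5a, a nuclear-encoded subunit of cytochrome c oxidase, had 87.07, 118.62 and 107.74 FPKM in AAE and 55.77, 35.99 and 59.22 FPKM in AAS, a difference of 1.06 (SE 0.256). Atp5f1, of the stalk of ATP synthase, had 39.5, 40.51 and 53.94 FPKM in AAE and 28.59, 20.96 and 19.24 FPKM in AAS, a difference of 0.94 (SE 0.277). In complex I, Ndufb6 had 20.6, 28 and 51.87 FPKM in AAE and 21.65, 1.06 and 9.46 FPKM in AAS and overlapped. Over 43 glycolysis, pyruvate and TCA cycle genes the median was 0.27 with 34 positive, and 3 genes (6.98%, against 7.00% of all genes) were above without overlap. Among these Idh3b, a subunit of mitochondrial isocitrate dehydrogenase, had 3.21, 4.44 and 4.88 FPKM in AAE and 1.2, 0.25 and 2.24 FPKM in AAS. The mean log2 level of this last list was 3.98, 4.11 and 4.01 in AAE and 3.85, 3.65 and 3.92 in AAS, without overlap as deposited. Without AAS replicate 2 its median was 0.11. After rescaling its median was 0.17 and 25 of its 43 genes were positive. Positive genes then numbered 23 of the 41 of complexes II to V and 19 of the 29 of complex I.

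Proteasome and spliceosome lists had positive medians too, while those of translation factors and ribosome biogenesis were nearer to all genes. The mean log2 level of the proteasome list was 4.2, 4.39 and 3.72 in AAE and 4.06, 3.29 and 3.85 in AAS. For the spliceosome it was 3.91, 4.28 and 3.74 in AAE and 3.86, 3.14 and 3.78 in AAS, so both lists overlapped between groups. Of 34 proteasome genes the median was 0.38 and 5 (14.7%, against 7.00% of all genes) were above without overlap, among them Psmd4, the ubiquitin receptor of the lid and base junction, with 66.57, 60.19 and 70.86 FPKM in AAE and 33.38, 30.81 and 37.7 FPKM in AAS. Psmb3, a core subunit, had 8.24, 30.79 and 42.07 FPKM in AAE and 7.15, 4.38 and 6.87 FPKM in AAS. Over 42 core spliceosome genes the median was 0.35, with 3 above (7.14%, against 7.00% of all genes) and 1, Lsm3, below without overlap (2.38%, against 4.34%), although without AAS replicate 2 that median was 0.10. Without AAE replicate 2 the proteasome median was 0.13. Translation factors had a median of 0.14 over 44 genes, with 4 above without overlap (9.09%, near the 7.00% of all genes). That median was 0.03 after rescaling, 0.00 without AAS replicate 2, with 22 positive and 22 negative, and 0.28 without AAE replicate 3. All genes had medians of −0.065, −0.008 and 0.095 in these settings. Eif2s1, the regulated subunit of the initiation factor eIF2, had 38.22, 20.97 and 20.87 FPKM in AAE and 12.31, 13.4 and 12.44 FPKM in AAS. Eef1a1, an elongation factor, had 814.98, 832.28 and 1173.88 FPKM in AAE and 703.74, 765.93 and 530.19 FPKM in AAS. Ribosome biogenesis, with a median of 0.11 over 67 genes and 0 above and 2 below without overlap (2.99%, against 4.34% of all genes), sat near all genes, and after rescaling its median was −0.02.

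**Figure D2:**
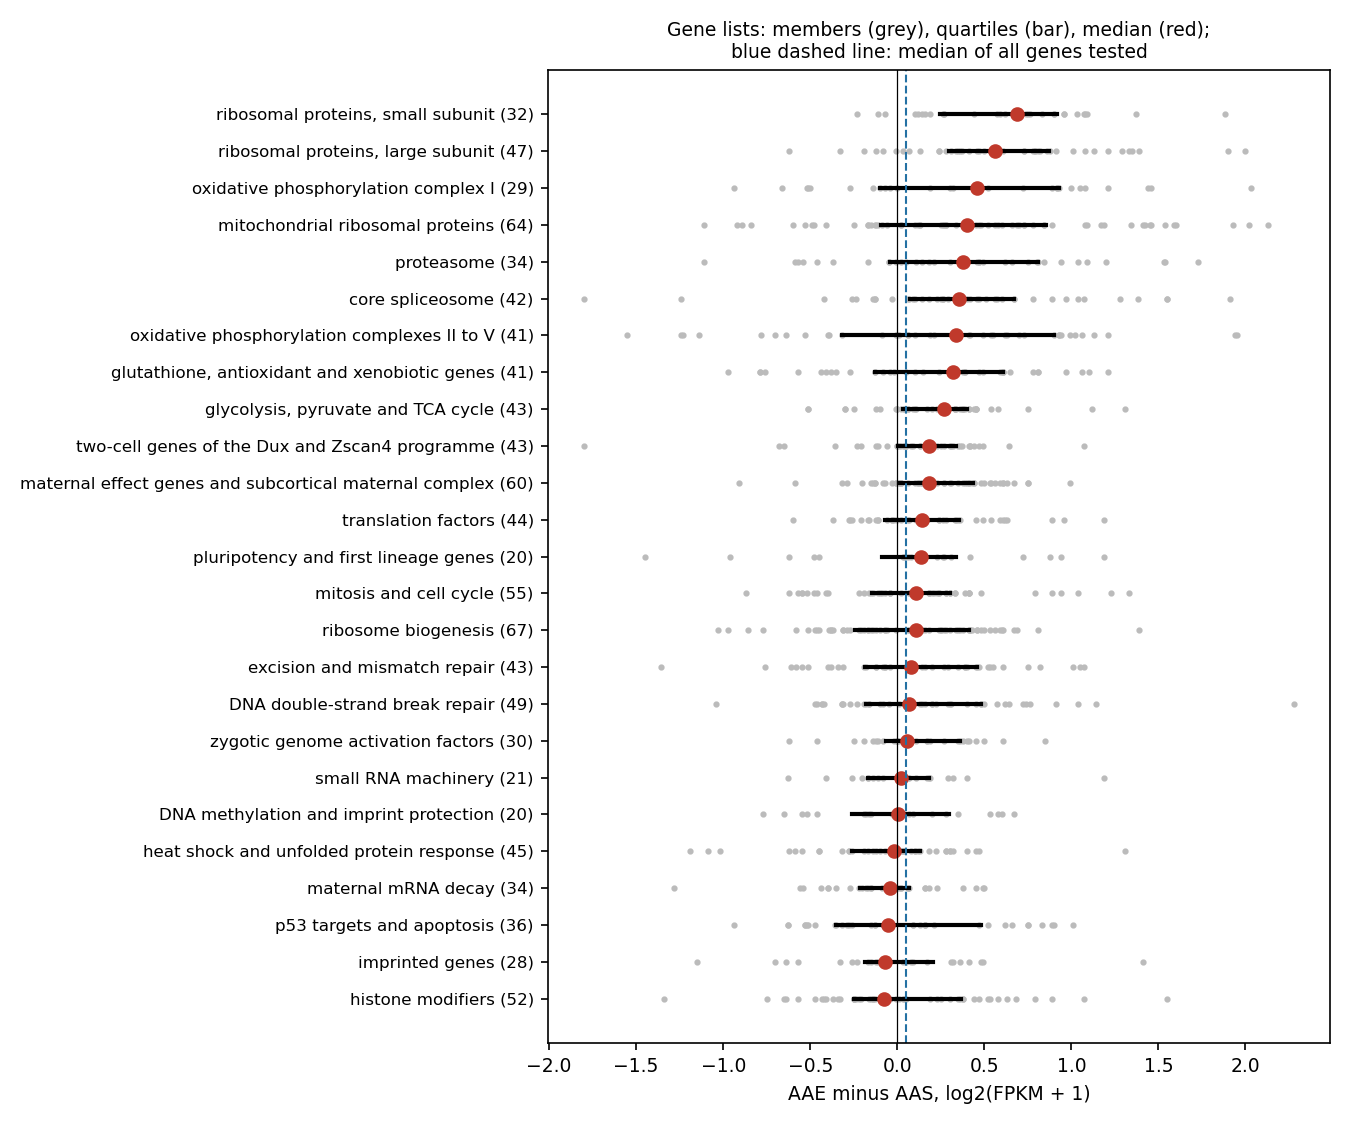
AAE minus AAS difference in log2(FPKM + 1) for each tested member (grey) of 25 gene lists, with the list's quartiles (black bar) and median (red), the number tested in brackets and the median of all genes as a dashed line. Ribosomal, mitochondrial, proteasome and spliceosome lists lie to the right of the line and histone modifiers, imprinted and p53 genes slightly to its left.

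**Figure D3:**
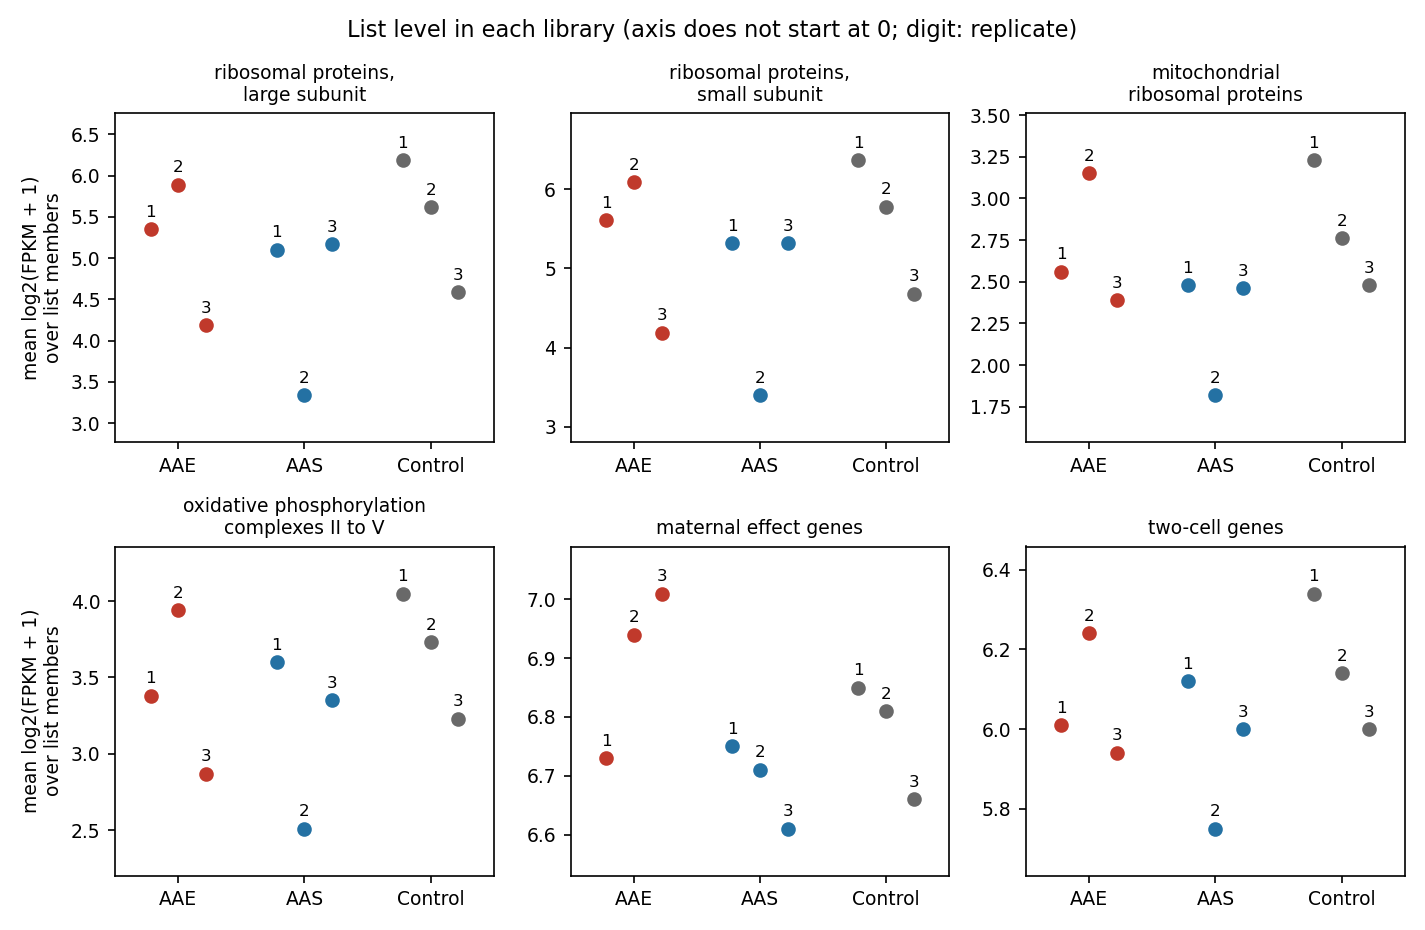
Mean log2(FPKM + 1) over the tested members of 6 lists in each AAE, AAS and Control library, with the replicate number above each point and axes that do not start at 0. AAE replicate 3 and AAS replicate 2 were the lowest of their groups in every panel except that of maternal effect genes. AAE and AAS overlap in every panel.

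Maternal effect genes and genes of the Dux and Zscan4 programme had the same small positive median, 0.18, and no test compared these lists. Of 60 maternal effect genes, 46 were positive, and 9 were above (15%, against 7.00% of all genes) and 1 below without overlap (1.67%, against 4.34%). Dppa3, a maternal protein that protects the egg's chromatin from demethylation, had 1644.16, 2050.02 and 1818.24 FPKM in AAE and 1492.81, 1069.29 and 1265.64 FPKM in AAS, a difference of 0.53 (SE 0.166). Zp1, of the egg coat, had 35.48, 28.15 and 34.29 FPKM in AAE and 13.45, 16.1 and 18.47 FPKM in AAS, a difference of 0.99 (SE 0.281). The others above, named after their values were seen, were Fbxw18, Oas1d, Cnot7, Wee2, Oas1e, Lhx8 and Nlrp4e, with differences of 0.27 to 0.75, and the 1 below was Bmp15 at −0.32. After rescaling the list median was 0.07, when that of all genes was −0.065.

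Over 43 genes of the Dux and Zscan4 programme, which marks the 2-cell stage, 33 were positive, with 0 genes above and 2 below without overlap (4.65%, against 4.34% of all genes). Their median was 0.00 after rescaling, with 22 positive and 21 negative, and 0.04 without AAS replicate 2. The median of all genes was −0.065 and −0.008 in these settings. Usp17le, a deubiquitinase with near copies, had 1.62, 3.74 and 2.48 FPKM in AAE and 9.14, 18.09 and 8.38 FPKM in AAS, and Tdpoz2 had 323.49, 334.45 and 340.0 FPKM in AAE and 395.38, 441.91 and 447.28 FPKM in AAS. Reads of such multicopy families may be split between members, so both values are uncertain. The 30 zygotic genome activation factors had a median of 0.05, equal to that of all genes, and of −0.08 after rescaling, and 1 gene was above without overlap (3.33%). This was Obox5, an oocyte and early embryo homeobox gene, which had 1621.19, 1750.84 and 1657.87 FPKM in AAE and 1537.63, 1116.39 and 1065.67 FPKM in AAS, a difference of 0.45 (SE 0.167). Of 20 pluripotency and lineage genes with a median of 0.13, 1 was above without overlap (5.0%, against 7.00% of all genes) and 4 were below (20.0%, against 4.34%). Leaving out single libraries moved that median between −0.02, without AAS replicate 2, and 0.30, without AAE replicate 3. The 1 above was Sox2, with 3.84, 5.55 and 3.25 FPKM in AAE and 1.31, 0.67 and 1.92 FPKM in AAS. The 4 below were Klf2, Esrrb, Lin28b and Eomes, of which the last 3 were named after their values were seen. Pou5f1, the most abundant, overlapped at 127.05, 191.98 and 121.74 FPKM in AAE and 171.94, 75.21 and 118.87 FPKM in AAS.

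Chromatin and RNA turnover lists had medians close to 0 as deposited, and lower ones after rescaling. The median was −0.08 over 52 histone modifiers, 0.00 over 20 DNA methylation genes and −0.07 over 28 imprinted genes. After rescaling these medians were −0.20, −0.12 and −0.21, when that of all genes was −0.065. Without overlap, 6 histone modifiers were above (11.5%) and 5 below (9.62%), 2 DNA methylation genes were above (10%) and 2 below (10%), and 1 imprinted gene was above (3.57%) and 3 below (10.7%), against 7.00% above and 4.34% below among all genes. Prmt5, an arginine methyltransferase, had 10.4, 3.93 and 4.98 FPKM in AAE and 13.24, 17.95 and 19.26 FPKM in AAS, a difference of −1.34 (SE 0.422). Hdac3, a histone deacetylase, had 4.75, 1.73 and 2.31 FPKM in AAE and 0, 1.09 and 0 FPKM in AAS. Atrx, a chromatin remodeller, had 99.73, 76.02 and 79.88 FPKM in AAE and 132.49, 145.83 and 123.04 FPKM in AAS, a difference of −0.65 (SE 0.201). Gnas, an imprinted gene for a G protein subunit, had 136.07, 134.61 and 145.21 FPKM in AAE and 122.91, 98.12 and 111.62 FPKM in AAS. Over 34 maternal mRNA decay genes the median was −0.04, with 2 above (5.88%) and 4 below (11.8%) without overlap. That median was −0.17 after rescaling, with 8 positive and 26 negative, and ran from −0.23 to 0.00 over all settings. Pan2, a deadenylase subunit, had 66.19, 70.42 and 82.06 FPKM in AAE and 100.89, 110.84 and 107.14 FPKM in AAS, while Cnot7, the catalytic subunit of another deadenylase complex, had 174.11, 214.67 and 212.67 FPKM in AAE and 159.75, 119.36 and 145.54 FPKM in AAS. The 21 small RNA genes had a median of 0.02 (−0.09 after rescaling), with 1 above and 1 below without overlap (4.76% each). Trdmt1, a tRNA methyltransferase, was the 1 above, at 5.81, 6.77 and 19.04 FPKM in AAE and 2.47, 4.43 and 3.77 FPKM in AAS.

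Genes of the damage response, in view of the DNA adducts that glycidamide forms, sat near the median of all genes. Double-strand break repair genes had a median of 0.07 over 49 members, with 3 above (6.12%, against 7.00% of all genes) and 0 below without overlap. The 3 were Xrcc3, Blm and Fanci, the last named after its values were seen. Blm, a helicase that resolves recombination intermediates, had 48.72, 36.53 and 37.41 FPKM in AAE and 22.87, 27.0 and 28.56 FPKM in AAS. Excision and mismatch repair genes had a median of 0.08 over 43 members, with 5 above (11.6%) and 1 below (2.33%, against 4.34% of all genes). Gtf2h1, of the TFIIH complex, had 45.71, 33.58 and 45.46 FPKM in AAE and 29.7, 15.59 and 29.7 FPKM in AAS, and Rev3l, the catalytic subunit of a translesion polymerase, had 45.99, 46.65 and 57.38 FPKM in AAE and 76.33, 85.15 and 60.79 FPKM in AAS. After rescaling both medians were −0.05, when that of all genes was −0.065.

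The p53 targets and apoptosis list had a median of −0.06 over 36 genes, with 4 above (11.1%, against 7.00% of all genes) and 2 below (5.56%, against 4.34%) without overlap. Cdkn1a, the p53-induced inhibitor of the cell cycle, had 10.32, 15.25 and 10.01 FPKM in AAE and 21.95, 16.51 and 34.34 FPKM in AAS, a difference of −0.94 (SE 0.364). Mdm4, an inhibitor of p53, was also lower, at 675.28, 610.41 and 666.07 FPKM in AAE and 803.0, 845.77 and 837.33 FPKM in AAS. Birc5, an inhibitor of apoptosis that also acts in mitosis, had 283.64, 322.54 and 238.88 FPKM in AAE and 164.65, 185.58 and 180.44 FPKM in AAS, a difference of 0.66 (SE 0.180). In mitosis and the cell cycle the median was 0.11 over 55 genes (−0.01 after rescaling), with 6 above (10.9%) and 1 below (1.82%). Pttg1, the securin that holds separase inactive, had 454.23, 730.84 and 780.21 FPKM in AAE and 415.52, 324.02 and 370.32 FPKM in AAS, and Fbxo5, an inhibitor of the anaphase-promoting complex, had 93.57, 58.7 and 75.22 FPKM in AAE and 54.04, 16.89 and 32.87 FPKM in AAS.

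Of 41 glutathione, antioxidant and xenobiotic genes, 26 were positive with a median of 0.32, but 2 were above (4.88%, against 7.00% of all genes) and 1 below without overlap (2.44%, against 4.34%), and the median was 0.03 without AAE replicate 2. Prdx1, a peroxiredoxin, had 210.89, 267.85 and 378.05 FPKM in AAE and 198.01, 175.73 and 114.09 FPKM in AAS, a difference of 0.81 (SE 0.272). Gstp1, a glutathione transferase, had 9.56, 13.31 and 9.12 FPKM in AAE and 9.91, 1.97 and 2.85 FPKM in AAS and overlapped. Heat shock and unfolded protein response genes had a median of −0.02 over 45 members, with 0 above and 1 below (2.22%). That gene was the inducible chaperone Hspa1a, at 2.84, 2.8 and 1.09 FPKM in AAE and 6.46, 4.56 and 5.08 FPKM in AAS. Differences of all named list members had adjusted p of 0.843 or more (limma, Benjamini-Hochberg).

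The authors' deposited table for the same groups, given as AAS over AAE and so opposite in sign to the differences above, lists 9951 genes and calls 55 (0.553%) at an adjusted p of 0.05, 17 higher and 38 lower in AAS. Of these 55, 46 passed the filter used here, and all 46 had the same direction here. Groups did not overlap for 45 of the 46, against 11.3% of all genes. An unadjusted limma p under 0.05 was reached by 40, against 5.36% of all genes. Both results come from the same 6 libraries, so these counts give no independent support. The called genes were mostly scarce: 34 had a mean under 5 FPKM, 6 had no entry in any AAS library and 4 had none in any AAE library. Of the 9696 genes tested here, 6209 had a mean of 5 FPKM or more, but 9 of the 55 were below the filter. The same shares over all 9951 genes were not taken. In the authors' deposited table Immp1l had a log2 value of −1.52 with an adjusted p of 1.84e-06 and Xrcc3 −2.56 with 1.89e-05, so that both were higher in AAE there too. Pacsin2 had 1.16 with an adjusted p of 0.00113 in the authors' deposited table. Of genes outside the naming rule, singled out after their values were seen, Pcdha11, a protocadherin, had the smallest adjusted p there (6.12e-09), with 1.57, 2.62 and 3.07 FPKM in AAE and no entry in any AAS library, while Control had 0.94, 4.13 and 0.43 FPKM. L1cam, a neural adhesion molecule, had 0.46, 1.08 and 0.91 FPKM in AAE and 4.91, 4.24 and 6.13 FPKM in AAS, and 2.69 in the authors' deposited table. Pglyrp2, a peptidoglycan recognition protein, was called there on 1.41, 2.57 and 40.69 FPKM in AAE and 0.36, 0.16 and 0.42 FPKM in AAS, where AAE replicate 3 alone held most of the signal.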

How the data were processed

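Embryo RNA was made into libraries with a Nugen Trio kit, per the labels' protocols. HISAT2 2.0.4, DESeq2 and mm10 are named in the submitters' processing notes, without their roles. For each library the authors deposited transcript FPKM values. Transcripts of a gene ID were summed, a gene missing from a file was taken as 0, and read depth is unknown because no counts were used. The authors' deposited series table gives log2 fold changes with p-values and adjusted p-values, which stand only beside the values computed here. The summed FPKM matched the gene FPKM in that table to within 0.015 FPKM for 9947 to 9951 of 9951 genes.

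Genes were kept when they averaged at least 1 FPKM over the 6 AAE and AAS libraries, and log2(FPKM + 1) was fitted with limma 3.58.1 (R 4.3.3; eBayes with trend, no covariate), with Benjamini-Hochberg adjustment over 9696 genes at 0.05, two-sided. Single values used a two-sided exact permutation test (SciPy 1.17.1). Tested on simulated data with 9696 genes, the AAE minus AAS fit recovered 5.97% of genes changed by 1 on the log2 scale, 34.3% of those changed by 2 and 60.6% of those changed by 3, with 2 false calls.

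Named genes were the 10 higher and 10 lower with the smallest p among genes listed in all 6 libraries, 4 in each direction among genes listed in at most 1 library of the other group, the 5 most abundant genes, and for each of 26 pathway lists the 2 members with the smallest p and the most abundant one, not all of which are printed. The comparison, its members and its lists were chosen with earlier results of these data known. Coordinates and promoters are from RefSeq on GRCm38.p6, in which 9682 of the 9696 gene IDs had an entry. Alternatives covered the pseudocount, filters, scaling, transcript choice, the fitted libraries, weights and leaving out replicates. Sperm libraries were not used here, and some genes are not reported here.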

Additional observations from a re-analysis of the deposited data

How the results depend on the processing

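Under 18 settings tried besides the reported one, limma called 0 genes, except that with array quality weights it called 1, Immp1l, at an adjusted p of 0.0459. Genes with an unadjusted p under 0.05 numbered 377 to 603 over the fits without 1 library and 365 to 763 over the other settings. Their split was 380 higher and 140 lower as reported, 233 and 242 after rescaling to the same total and 299 and 218 after quantile normalization. The genes whose groups did not overlap numbered 1100, and 1831 to 2190 without 1 library, where fewer libraries must be separated. The difference in genes listed ran from −263.0 without AAE replicate 2 to 881.5 without AAE replicate 3. Deviations of samples with the same replicate number had correlations of 0.057, −0.18 and −0.082, against −0.131 to 0.195 for differing numbers. The labels give no pairing, and so few values, centred within each group, cannot exclude one. With a replicate block, 0 genes were called and 396 had an unadjusted p under 0.05. Of 26 list medians, 8 stayed positive under every setting (mitochondrial ribosomal proteins, complex I, complexes II to V, proteasome, spliceosome, maternal effect, glutathione and glycolysis genes) and 18 crossed or touched 0, both cytosolic ribosomal lists among them. These signs were taken against 0, while the median of all genes itself ran from −0.065 to 0.095 over the settings. They therefore do not set the lists against all genes. A fit without AAE replicate 3 and AAS replicate 2, chosen after seeing the data, called 0 genes and gave 618 with an unadjusted p under 0.05, 414 higher and 204 lower. With 3 libraries a group and unknown depth, changes of up to 2 on the log2 scale are mostly missed, by the simulated recovery given with the methods.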

Other observations

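Genes of the Y chromosome, which only male embryos carry, give a view of the make-up of the pooled embryos. Of 10 in the list, 3 passed the filter. Usp9y, a deubiquitinase gene, had 0.19, 0.69 and 0.01 FPKM in AAE, against 2.26, 1.35 and 1.58 FPKM in AAS, without overlap, and 0.49, 0.71 and 0.36 FPKM in Control. Eif2s3y, a translation initiation factor gene, went the other way with overlap, at 4.29, 0.55 and 1.8 FPKM in AAE and 1.01, 1.77 and 0.28 FPKM in AAS. Whether the share of male embryos differed was not tested.

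Most markers of other cells were scarce, and a few differed between libraries. Prm2, Hba-a1 and Gja1 were singled out from their lists after their values were seen. Prm2, a sperm protamine, had 1.66, 4.92 and 0.3 FPKM in AAE and no entry in any AAS library, while Control had 0, 0 and 1.61 FPKM. Hba-a1, a globin, had 8.58, 2.73 and 1.51 FPKM in AAE and 0, 0 and 2.15 FPKM in AAS. Gja1, the gap junction protein of cumulus cells and of embryos, had 1.15, 1.06 and 0.39 FPKM in AAE and 4.34, 1.44 and 5.32 FPKM in AAS. The summed level of the 28 sperm markers was 223.8 to 256.4 FPKM in AAE and 190.3 to 236.7 FPKM in AAS, nearly all of it from Odf2, which also encodes a centrosome protein. Odf2 had 251.37, 225.09 and 204.72 FPKM in AAE and 216.68, 230.95 and 187.94 FPKM in AAS, with 244.47, 234.28 and 248.27 FPKM in Control. Without Odf2 the sperm markers summed to 5.02 to 19.08 FPKM in AAE and 0.09 to 5.75 FPKM in AAS. The 19.08 FPKM was that of AAE replicate 3, mostly from Acrv1 at 11.65 FPKM and Ldhc at 6.72 FPKM. With no filter on low values the sperm markers had a median difference of 0.09, with 9 higher and 6 lower in AAE. The 22 cumulus markers summed to 19 to 40.37 FPKM in AAE and 25.03 to 50.84 FPKM in AAS, mostly from Nr5a2, and without Nr5a2 to 2.45 to 6.81 FPKM in AAE and 5.61 to 16.53 FPKM in AAS. The 17 blood markers summed to 2.15 to 10.74 FPKM in AAE and 1.85 to 2.33 FPKM in AAS. Their part in the results was not tested.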
